A study of Homo sapiens with 4 samples.

Results

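The subunit genes of the respiratory chain were examined in A549, a human lung adenocarcinoma cell line, across 1 control library and 1 library made after knockdown of RBM4, a protein that binds RNA and acts in splicing and translation. Members were chosen by symbol alone: the NDUFA, NDUFB, NDUFC, NDUFS and NDUFV genes, SDHA to SDHD, the UQCR genes, the COX4 to COX8 genes, and all MT- genes. Only symbols that the other table of the series listed too were taken. This gave 82 of the 19732 symbols in the A549 table, 69 encoded in the nucleus and 13 in the mitochondrial genome. The choice by symbol leaves out CYC1, a nuclear subunit of complex III, which is given with other mitochondrial genes below. It also leaves out NDUFAB1, an accessory subunit of complex I, because a number had to follow the letters of the NDUF symbols. The values of NDUFAB1 are not reported here. The series also describes a control and an RBM4 knockdown sample of H1299, another lung cancer line, whose values were not analysed here. Both A549 groups were cultures of the same line; how the control was treated and whether the knockdown culture was a clone or a pool are not given in the labels.

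The respiratory chain passes electrons from NADH and succinate to oxygen and pumps protons across the inner mitochondrial membrane, and ATP synthase uses that gradient to make ATP. Complex I (NADH dehydrogenase), complex III (cytochrome bc1) and complex IV (cytochrome c oxidase) are mosaics of proteins made from both genomes, whereas complex II (succinate dehydrogenase) is wholly nuclear. The mitochondrial genes are read as long polycistronic RNAs by a dedicated polymerase and are cut into mature messengers, while each nuclear subunit gene has its own promoter, so the supply of the complexes draws on separate transcription systems.

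Levels are FPKM, which scales fragments by the length of the transcript and the fragments mapped in that library, added up over all transcripts of a symbol. Below, 2 values of a gene are those of the control and then the knockdown library. The number in brackets after them is the difference, the log2 ratio of knockdown to control after adding 1 to each FPKM, which is too small for genes near 0. With 1 library per group no test was possible and no value has a replicate error. The 2 columns were assigned to control and knockdown from their names. RBM4 had 59.4 and 30.6 FPKM, or 51.5% of its control level. Total FPKM was 671529 and 622366, and read depth is unknown. Of the 9 epithelial markers, KRT8 (1646 and 888 FPKM), KRT18 (1853 and 912 FPKM), KRT19 (29.6 and 64.9 FPKM), EPCAM (2.74 and 2.75 FPKM) and CDH1 (7.70 and 6.54 FPKM) were present, whereas the lung markers NKX2-1 and SFTPB were listed at 0 in both libraries and SFTPC and NAPSA were below 1 FPKM. Summed markers of blood cells reached 0.047 FPKM at most and those of endothelium 0.336 FPKM. Of the fibroblast markers only COL1A1 was above 1 FPKM, at 2.61 and 9.47 FPKM, and DCN was at 0. The epithelial sum, nearly all from KRT8 and KRT18, was 3540 and 1875 FPKM, and its part in the results below was not tested.

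The genomes separated in the comparison of the libraries. Nearly all nuclear subunit genes were modestly lower in the knockdown library, and the mitochondrial genes were equal or slightly higher. Of the 69 nuclear members, 60 had at least 1 FPKM in both libraries, and 55 of these had a difference below 0, where 55.1% of all 11539 genes at that level did. Their median difference was -0.28, with quartiles of -0.39 and -0.16, against -0.05 over all genes at that level. Counting also the 3 that reached 1 FPKM in 1 library only, 56 of 63 were below 0, against 53.4% of 12230 genes. Of the 13 MT- genes, 11 had a difference above 0 and the median was 0.07, in a range of -0.04 (MT-ND1) to 0.36 (MT-ND5). In all, 50 of the 60 nuclear genes lay below the lowest MT- gene, MT-ND1, where 49.7% of all 12230 genes did. Of the 60, 1, NDUFA7, lay above the MT- median, that of MT-ND3, below which 59.7% of all genes lay. Both shares are over genes at 1 FPKM in either library, a wider set than that of the 60. They were not taken at matched abundance.

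Abundance and scaling bear on these values. All 60 nuclear genes had more than 15 FPKM in the control library. Of all 6011 genes at 15 FPKM or more in either library, 61.2% had a difference below 0 and the median was -0.12, so the nuclear members lay 0.16 below genes at or above that level, compared with 0.24 below all 12230 genes at 1 FPKM or more in either library. The MT- share of the library total was 18.6% in the control and 21.7% after knockdown. Rescaling both libraries to the same total moved the median of all genes from -0.04 to 0.06, and rescaling to the same total of nuclear genes moved it to 0.11. Under the latter the nuclear members had a median of -0.12, with 45 of 62 below 0 where 39.7% of all genes were, and the MT- genes had a median of 0.24, with all 13 above 0. Measured from the median of all genes, the nuclear members lay at -0.24 as deposited, -0.23 after the first rescaling and -0.23 after the second. In bulk cultures such as these, fewer cells of a type and less RNA per cell cannot be told apart.

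**Figure D1:**
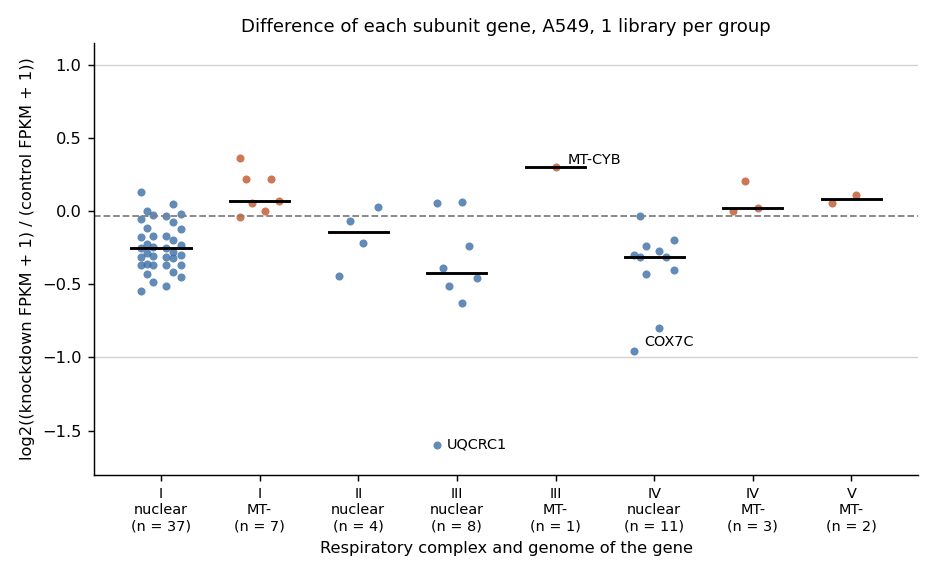
Difference of each subunit gene at 1 FPKM or more in both libraries (y axis, log2 of knockdown over control, FPKM plus 1), by respiratory complex and genome of the gene. Points are genes, black bars are medians, the dashed line is the median of all genes (-0.04) and the grey lines mark 2-fold. The nuclear medians of complexes I, III and IV lie at -0.26, -0.42 and -0.31, each below the MT- median of the same complex.

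Past 2-fold on this scale there were 2 of the 76 members with at least 1 FPKM in either library, whereas 7.21% of all 12230 genes were past 2-fold, 4.96% higher and 2.25% lower. UQCRC1 was lower. COX6B2 was higher, but at 0.34 and 2.51 FPKM it entered only through the knockdown library, so it had to differ. The other members that reached 1 FPKM in 1 library only were NDUFA4L2, at 0.22 and 1.26 FPKM (0.89), and UQCRHL, at 1.01 and 0.43 FPKM (-0.49).

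Complex I takes electrons from NADH, and its catalytic core has subunits of both genomes. The 7 nuclear core subunits, which carry the flavin and the iron-sulfur clusters or frame the quinone site, all had a difference below 0, with a median of -0.20. NDUFS8, an iron-sulfur subunit, had 151.1 and 150.8 FPKM (-0.003). The NADH-binding flavoprotein gene NDUFV1 had 63.3 and 54.9 FPKM (-0.20), and its partner NDUFV2 had 113 and 94.9 FPKM (-0.25). NDUFS1, NDUFS3 and NDUFS7 lay at -0.05, -0.22 and -0.03. The named core genes thus ran from nearly equal levels to modestly lower ones.

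Accessory subunits of complex I surround the core and are needed for its assembly and stability. The 30 genes counted here as such, NDUFA4 included and NDUFAB1 not, had a median of -0.29, with 28 below 0. The lowest were NDUFA6, at 65.9 and 44.9 FPKM (-0.54), NDUFS6, at 62.6 and 43.6 FPKM (-0.51), and NDUFV3, at 15.5 and 10.7 FPKM (-0.49). The highest of those at 1 FPKM in both libraries were NDUFA7, at 43.6 and 47.7 FPKM (0.13), and NDUFS4, at 61.8 and 63.9 FPKM (0.05). The most abundant in the control, NDUFB1, had 466 and 346 FPKM (-0.43), and NDUFS5 had 237 and 190 FPKM (-0.32). By name series, the 11 NDUFB genes of the membrane arm all lay below 0 with a median of -0.30, the 13 NDUFA genes had a median of -0.24, and the 8 NDUFS genes -0.14. Summed over the 37 nuclear genes, complex I had 3851 and 3219 FPKM, the latter 83.6% of the former. NDUFA4, named for complex I but now known as a subunit of complex IV, had 50.8 and 39.3 FPKM (-0.36), a value near the medians of both sets.

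The 7 mitochondrial ND genes, which encode the proton-pumping membrane core of complex I, together had 37759 and 41575 FPKM, the latter 110.1% of the former. Their median difference was 0.07, against -0.26 for the nuclear genes of the complex at 1 FPKM in both libraries. The summed MT- level was 9.81 times the summed nuclear level in the control and 12.9 times after knockdown.

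Complex II, which joins the citric acid cycle to the chain, has no mitochondrial gene and its nuclear subunits had a median of -0.14, against -0.26, -0.42 and -0.31 for those of complexes I, III and IV. Over all 6011 genes at 15 FPKM or more in either library the median was -0.12. SDHB, the iron-sulfur subunit, had 60.2 and 44.0 FPKM (-0.44). The flavoprotein gene SDHA had 62.4 and 53.4 FPKM (-0.22). The membrane anchors SDHC and SDHD had 61.96 and 63.1 FPKM (0.02) and 42.4 and 40.4 FPKM (-0.07). The parts of this complex thus differed unequally, with SDHB lowest and SDHC nearly equal. SDHD turned above 0 under both rescalings, and SDHC turned below 0 when the highest transcript stood for the gene.

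Complex III held the single nuclear member that was past 2-fold and above 1 FPKM in both libraries. UQCRC1 (ENSG00000010256, chromosome 3, 48599002 to 48610976, minus strand, hg38), a core protein on the matrix side of the complex, had 49.3 and 15.6 FPKM (-1.60), so that 31.7% of the control level was left. Of all genes, 0.343% had a lower difference. Only 1 UQCRC1 transcript was listed, and the annotation showed no gene sharing its exons. Its partner core gene UQCRC2 had 100.4 and 76.5 FPKM (-0.39), so the pair differed by unequal amounts.

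The other complex III members at 1 FPKM in both libraries divided into a lower and a nearly equal set. The hinge protein gene UQCRH had 187 and 121 FPKM (-0.63), UQCRQ had 235 and 165 FPKM (-0.51), the Rieske iron-sulfur gene UQCRFS1 had 65.0 and 47.0 FPKM (-0.46), and UQCRB had 71.6 and 60.6 FPKM (-0.24). The small subunits UQCR10, at 55.5 and 57.5 FPKM (0.05), and UQCR11, at 36.1 and 37.8 FPKM (0.06), were nearly equal. Without UQCRC1 the nuclear median of complex III was -0.39 in place of -0.42. MT-CYB, cytochrome b, the mitochondrial subunit of the complex, had 3241 and 3984 FPKM (0.30). The ratio of MT-CYB to the summed UQCR genes, which do not include CYC1, was 4.05 in the control and 6.86 after knockdown.

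Complex IV passes electrons to oxygen. All 11 nuclear subunit genes at 1 FPKM in both libraries had a difference below 0, with a median of -0.31, although COX6A1 (384 and 375 FPKM, -0.04) turned above 0 under both rescalings and when differences were centred on the median of all genes. The lowest were 2 small membrane subunits: COX7C (ENSG00000127184, chromosome 5, 86617904 to 86620962, plus strand) had 345 and 178 FPKM (-0.95), and COX7A2 had 206 and 118 FPKM (-0.80). COX5B, a zinc-binding subunit, followed at 177 and 131 FPKM (-0.43). The most abundant in the control, COX6B1 and COX8A, had 473 and 384 FPKM (-0.30) and 460 and 348 FPKM (-0.40), and the regulatory subunit COX4I1 had 376 and 327 FPKM (-0.20). COX7A2L, which bridges complexes III and IV in supercomplexes, had 95.4 and 76.7 FPKM (-0.31). COX5A (-0.31), COX7B (-0.27) and COX6C (-0.24) lay between these.

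Isoforms of complex IV that are restricted to muscle, lung, testis or other tissues were below 1 FPKM in both libraries, COX6B2 excepted. COX6A2, COX7A1, COX7B2 and COX8C were listed at 0 in both libraries, and COX4I2, the isoform known for its expression in lung, was at 0 and 0.12 FPKM. COX6B2, the testis isoform, had the levels given above and shares exons with another gene, so its value is uncertain. The read-through gene NDUFC2-KCTD14 was also at 0 in both.

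The 3 mitochondrial subunits form the catalytic centre of complex IV. MT-CO1 had 14221 and 16399 FPKM (0.21), MT-CO2 had 11175 and 11350 FPKM (0.02), and MT-CO3 had 18872 and 18914 FPKM (0.003). Together they made up 93.5% of the FPKM of the complex in the control and 95.1% after knockdown, and the ratio to the nuclear sum went from 14.5 to 19.5. The MT- median exceeded the nuclear one, over members at 1 FPKM in both libraries, by 0.33 in complex I, 0.72 in complex III and 0.33 in complex IV.

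**Figure D2:**
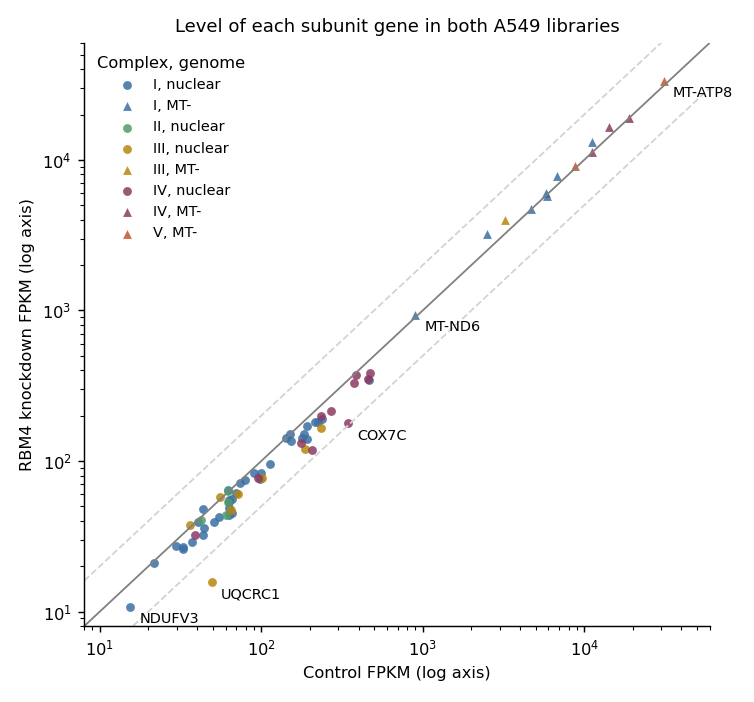
Level of each subunit gene at 1 FPKM or more in both libraries, control FPKM (x axis, log) against knockdown FPKM (y axis, log), coloured by complex, with circles for nuclear and triangles for MT- genes. The solid line marks equality and the dashed lines 2-fold. Of the 60 nuclear genes 55 sit below equality, UQCRC1 farthest from it, and 11 of the 13 MT- genes sit above it.

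The mitochondrial genes lie end to end, and some share sequence. MT-ATP8 and MT-ATP6, subunits of ATP synthase made from 1 messenger, overlap by 46 bases, and MT-ND4L and MT-ND4 by 7 at chrM:10760-10766 (ATGCTAA, in which the start codon of MT-ND4 precedes the stop codon of MT-ND4L). The first overlap lies at chrM:8527-8572 (plus strand, GRCh38, GENCODE release 29) and is shown because a read inside it belongs to both genes. Capitals mark the start codon of MT-ATP6 and the stop codon of MT-ATP8.
MT-ATP8 and MT-ATP6 overlap: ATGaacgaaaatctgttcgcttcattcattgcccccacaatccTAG

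How far these overlaps bear on levels was not tested. MT-ATP8, 207 bases long, had 31168 and 33598 FPKM (0.11), the highest of the MT- genes in both. MT-ATP6, 681 bases long, had 8742 and 9094 FPKM (0.06). MT-ATP8 held 24.9% of MT- FPKM in either library, but 7.12% and 7.02% once FPKM was multiplied by length. Its rank as highest thus held only for FPKM. The gene is very short, and whether this or shared reads set its rank was not tested. On that length-weighted scale MT-CO1 held most, at 24.2% and 25.5%, and all MT- genes held 8.01% and 8.92% of the library.

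Within the mitochondrial genome the differences were unequal by position. The 4 genes at the end of the heavy-strand transcript were the highest along with MT-CO1. MT-ND5 had 2503 and 3218 FPKM (0.36), and MT-CYB followed. MT-ND4L had 11219 and 13063 FPKM (0.22), and MT-ND4 had 6763 and 7859 FPKM (0.22). These 4 summed to 118.5% of the control, against 105.3% for the other 8 heavy-strand genes, MT-CO1 among them at 115.3%. This split was not planned and sets apart the genes with the highest differences, so the 2 sums had to differ. At the beginning of the transcript, MT-ND1 had 5894 and 5732 FPKM (-0.04) and MT-ND2 had 4712 and 4706 FPKM (-0.002), both of which turned above 0 under the rescalings. MT-ND3 had 5771 and 6066 FPKM (0.07). Across the 12 heavy-strand genes, which share libraries and precursor RNA and include overlapping neighbours, the difference correlated with order along the genome at Pearson r = 0.76 and Spearman rho = 0.81, and with log2 control FPKM at r = -0.39 and rho = -0.21. MT-ND6, the only light-strand coding gene, was the lowest in level, at 898 and 932 FPKM (0.05), and without a stated strand setting its reads cannot be told apart from antisense RNA of the other strand.

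**Figure D3:**
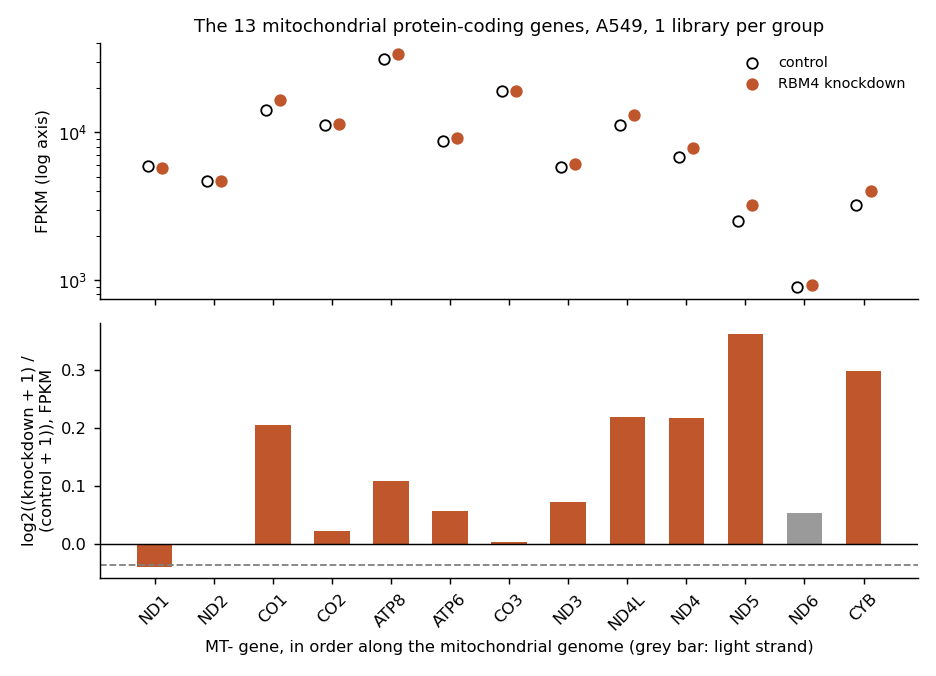
The 13 mitochondrial protein-coding genes in order along the mitochondrial genome (x axis). The upper panel plots FPKM on a log axis in the control (open) and knockdown (filled) library, the lower panel the log2 difference of each gene, with the median of all genes dashed and the light-strand gene MT-ND6 in grey. The bars for ND4L, ND4, ND5 and CYB lie between 0.22 and 0.36, while those for ND1, ND2, CO2 and CO3 lie between -0.04 and 0.02.

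The leading transcript of most nuclear members was the same in both libraries. Of 48 nuclear members at 1 FPKM in both libraries with more than 1 transcript, 46 had the same most abundant transcript in both. Another transcript led in 11.9% of all 9940 such genes, and in 8.43% of the 5360 with 15 FPKM or more in either library. The 2 members were COX7A2, where ENST00000460985 went from 113 to 53.3 FPKM (55.0% to 45.1% of the gene), and NDUFA6. The share of a transcript shifted by 10 percentage points or more in 6 of the 48, against 38.3% of all such genes and 24.6% of those at 15 FPKM or more. The largest shift was in NDUFS7, where ENST00000233627 went from 96.5% to 77.4% of the gene while the gene total stayed at 21.6 and 21.1 FPKM. In NDUFA12, ENST00000547986 went from 7.75 FPKM to a listed 0.

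The promoters of the nuclear members were searched because these genes lay below the median of all genes together. The sequences are RefSeq's, build GRCh38.p14, 250 bases before to 50 after the start, and matched 51 of the 60 genes. Some of these windows lie inside annotated exons. Where this was counted, it ran from 22 of the 250 bases before the start in COX5B to all 250 in UQCRC1, UQCRC2, UQCRFS1 and NDUFV1. Its bearing on the shares below was not tested. Letters for sites of NRF1 (GCGCANGCGC), of the ETS family to which GABPA belongs (CCGGAAG) and of YY1 (AAGATGGC), factors known for driving respiratory chain genes, were sought on both strands. The NRF1 letters were in 12 of the 51 (23.5%), against 6.28% of all 27305 promoters and 12.1% of those of genes at 1 FPKM or more in A549. The ETS letters were in 15 (29.4%, against 10.7% and 19.9%) and the YY1 letters in 8 (15.7%, against 3.03% and 5.61%). Members with the NRF1 letters had a median difference of -0.25 and those without -0.30, and the medians were -0.22 and -0.30 for the ETS letters and -0.30 and -0.28 for the YY1 letters. The median was below 0 both with and without each match. With 55 of the 60 nuclear members below 0, nearly any split would give this, so it tells nothing about the letters.

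The 250 bases before the start are shown for 2 complex IV genes that hold the ETS letters and yet lay apart, COX5B among the lowest of the complex and COX6A1 the highest, with matches in capitals. These were chosen after their values were seen, among windows that hardly reach into annotated exons. COX5B (chr2:97645812-97646061, plus strand) holds 2 matches, the second running past the start, and COX6A1 (chr12:120437863-120438112, plus strand) holds 1 on the opposite strand.
COX5B: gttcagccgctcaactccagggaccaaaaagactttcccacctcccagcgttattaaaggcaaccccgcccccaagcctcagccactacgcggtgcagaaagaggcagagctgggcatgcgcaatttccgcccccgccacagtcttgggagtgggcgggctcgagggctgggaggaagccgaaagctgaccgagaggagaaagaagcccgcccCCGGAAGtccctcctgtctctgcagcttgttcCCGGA
COX6A1: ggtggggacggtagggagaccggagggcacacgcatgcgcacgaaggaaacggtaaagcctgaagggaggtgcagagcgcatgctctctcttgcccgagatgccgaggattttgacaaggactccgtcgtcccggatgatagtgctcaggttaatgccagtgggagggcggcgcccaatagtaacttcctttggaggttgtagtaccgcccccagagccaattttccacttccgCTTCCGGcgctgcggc

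Most other nuclear genes of the same machinery lay on the same side as the nuclear members. The counts in the lists that follow stand beside 53.4% of all genes below 0, or 61.2% of those at 15 FPKM or more, and 7.21% past 2-fold. Of the 18 nuclear ATP synthase genes, 17 had a difference below 0, with a median of -0.29 and none past 2-fold. ATP5G1, a ring subunit, was lowest at 224 and 150 FPKM (-0.58), and ATP5H was highest at 265 and 273 FPKM (0.04). CYC1 and CYCS had lower differences than most nuclear members. CYC1, the cytochrome c1 subunit of complex III that the choice by symbol leaves out, had 115 and 75.5 FPKM (-0.60). CYCS, cytochrome c, which carries electrons between complexes III and IV, had 120 and 74.6 FPKM (-0.68).

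Assembly factors are given by complex. All 14 of complex I were below 0 (median -0.30), from NDUFAF8 (-0.84) to NUBPL (-0.03), and 19 of 20 of complex IV were below 0 (median -0.33), from COX20 (-0.84) to COX19 (0.04). The 6 of complex III had a median of -0.42, with 4 below 0 and quartiles of -0.78 and 0.08. Among them UQCC3, at 14.9 and 7.00 FPKM (-0.99), and BCS1L, the translocase that inserts the Rieske protein, at 16.4 and 8.69 FPKM (-0.84), were low. UQCC1 was at 0.28 and LYRM7 at 0.18. The 4 of complex II ranged from SDHAF3 (-0.49) to SDHAF2 (0.27), with a median of -0.09 and 3 below 0. No assembly factor was past 2-fold once 1 was added to each FPKM, although the FPKM of UQCC3 itself differed by more.

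Genes that transcribe and maintain mitochondrial DNA and RNA were mostly lower, although the MT- genes were not. Of 25 such genes, 22 were below 0, with a median of -0.32. None was past 2-fold once 1 was added to each FPKM, although MTERF2, at 7.47 and 3.71 FPKM (-0.85), was so without that addition. The packaging factor TFAM had 41.6 and 33.1 FPKM (-0.32), the polymerase POLRMT had 16.9 and 16.5 FPKM (-0.03), and SLIRP and LRPPRC, partners that stabilise mitochondrial messengers, lay at -0.63 and -0.27. MTERF4 was lowest (-0.90) and TFB1M highest (0.35). Among the 9 of 10 regulators at 1 FPKM or more in either library, 6 were below 0. ESRRA, a nuclear receptor that drives these genes, was past 2-fold at 18.4 and 7.49 FPKM (-1.19). NRF1 and GABPA lay at -0.35 and -0.38, and PPARGC1A was below 1 FPKM in both libraries. HIF1A and PPARGC1B lay above 0, at 0.19 and 0.16. TFEB, of lysosome genes, was highest at 2.12 and 4.84 FPKM (0.90), and was past 2-fold without the added 1.

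Not every mitochondrial pathway lay as low. The 14 citric acid cycle genes had a median of -0.06, near the -0.04 of all genes, with 10 below 0. All 14 were above 15 FPKM in both libraries, and genes at 15 FPKM or more in either library had a median of -0.12. FH, fumarase, was lowest at 44.5 and 22.9 FPKM (-0.93), CS, citrate synthase, had 96.4 and 68.1 FPKM (-0.50), and IDH3G was highest (0.55). Of 14 genes of import, the outer membrane and mitochondrial shape, 13 were below 0 (median -0.32). UCP2, an inner-membrane carrier, was past 2-fold at 37.0 and 17.9 FPKM (-1.005), and DNM1L, of fission, was highest (0.03).

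**Figure D4:**
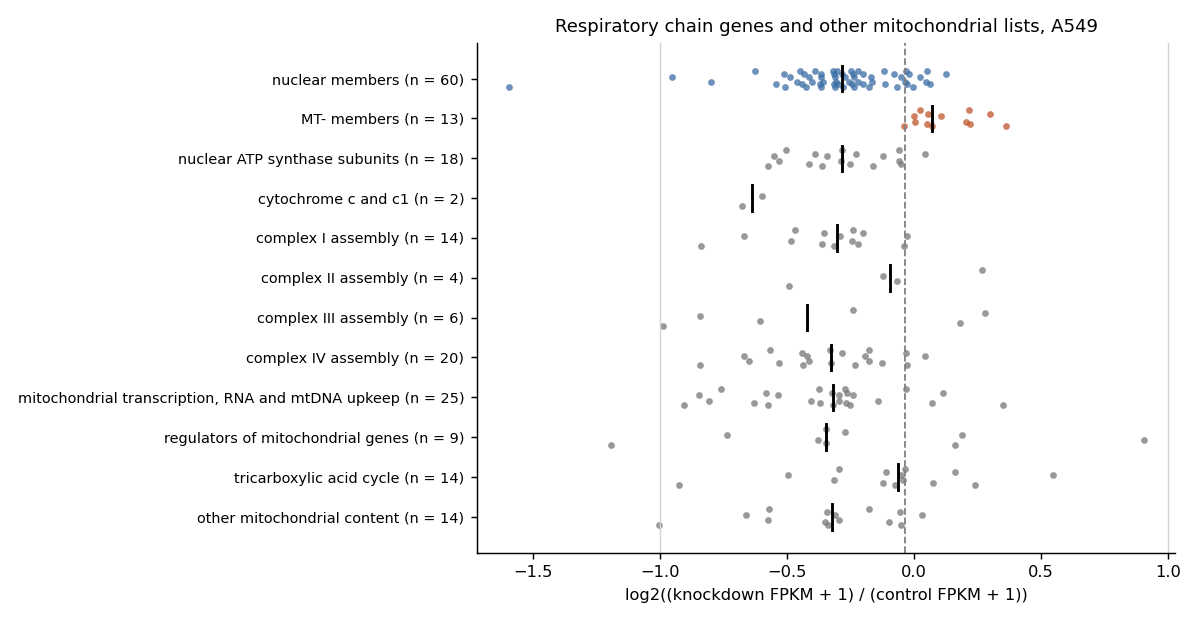
Difference of each gene (x axis, log2 of knockdown over control, FPKM plus 1) in the nuclear and MT- members at 1 FPKM in both libraries and in the measured genes of the other mitochondrial lists. Points are genes, black bars are medians, the dashed line is the median of all genes and the grey lines mark 2-fold. Of the sets drawn, the MT- members are the only one with a median above 0 (0.07), and citric acid cycle genes (-0.06) and complex II assembly factors (-0.09) lie nearest the median of all genes among the rest.

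The counting of copies limits single values. On the same strand, 18 of the 60 nuclear genes share exon bases with another annotated gene, COX7C, COX8A, COX6A1 and NDUFA7 among them. Of the 60, 33 have named pseudogenes. All 13 MT- genes have named nuclear copies in the annotation, 394 in all. How reads were shared among such copies is not stated in the labels, and its part in the differences was not tested. Leaving out genes that share exons gave medians of -0.31 for the nuclear and 0.06 for the MT- genes.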

How the data were processed

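Messenger RNA was measured in 4 samples of the series, and the 2 A549 libraries, 1 per group, were analysed. Per the labels' protocols, Trizol RNA was made into libraries with an Illumina TruSeq kit. The tools named per the submitters' processing notes are TopHat, Cufflinks and CASAVA 1.8.2, and the build is hg38; their order, the annotation, strand setting and filters are not given in the sources used here. Values deposited by the authors are FPKM per protein-coding transcript (79989 transcripts), with depth unknown and no further scaling stated. The other table's 3 value columns matched no sample label and were not used; its symbols were read to find the members.

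With Python 3.11.15, pandas 2.3.3 and numpy 2.4.6, FPKM was summed per symbol, genes at 1 FPKM or more in either library were kept, and log2 differences were taken with a pseudocount of 1. With 1 library per group no test was made; the counting was tested on simulated data. Positions and exon sharing came from GENCODE release 29. The members, lists and named-gene rule were chosen with earlier results of these data known. That rule named all MT- and SDH genes and tissue isoforms, the 3 highest and 3 lowest and 2 most abundant nuclear genes of complexes I, III and IV, all past 2-fold, and the extremes of each list; core subunits, NDUFA4, COX7A2L, the other COX genes, transcripts and further list genes were picked with their values in view. Some genes that were measured are not reported here by name. Alternatives changed the pseudocount, filter, scaling, transcript summing and exon-sharing genes.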

Additional observations from a re-analysis of the deposited data

How the results depend on the processing

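With 1 library per group, a value counts as moved when its printed digits changed. The members past 2-fold, 2 as reported, were 4 with a pseudocount of 0.1 (adding NDUFA4L2 and UQCRHL), and 1 (UQCRC1) at a minimum of 5 FPKM, without genes that share exons, or at a minimum of 1 FPKM in both libraries; UQCRC1 was past 2-fold in every alternative run. The median over the 63 nuclear members at 1 FPKM in either library, -0.28, was -0.25 with no filter, -0.29 with a pseudocount of 0.1, -0.17 rescaled to the same total, -0.12 rescaled to the same total of nuclear genes, -0.24 centred on the median of all genes, -0.30 with the highest transcript and -0.31 without exon-sharing genes. The MT- median, 0.07, was 0.18, 0.24 and 0.11 under the 2 rescalings and the centring, and 0.062 without exon-sharing genes. MT- minus nuclear medians stayed above 0 in every alternative run. In complex I the value, 0.32, was 0.33 at a minimum of 5 FPKM or of 1 FPKM in both libraries, with a pseudocount of 0.1 and under both rescalings, 0.35 with the highest transcript and 0.36 without exon-sharing genes. In complex III, 0.76 became 0.72 at both minimums and under both rescalings, 0.77 with a pseudocount of 0.1 and 0.77 without exon-sharing genes. In complex IV, 0.33 became 0.26 with no filter, 0.35 with the highest transcript and 0.42 without exon-sharing genes. With the highest transcript, MT- genes held 23.1% and 26.8% of all FPKM in control and knockdown, and 92.0% and 93.8% of complex I, 84.4% and 90.3% of complex III and 94.4% and 95.8% of complex IV, from 18.6% and 21.7%, 90.7% and 92.8%, 80.2% and 87.3%, and 93.5% and 95.1%. The shares of complex III leave out CYC1. Over genes at 1 FPKM in either library only, the shares of all FPKM were 18.7% and 21.7%. Among named members, 4 changed sign under each rescaling (COX6A1, MT-ND1, MT-ND2, SDHD), 2 under centring and 1 (SDHC) with the highest transcript. The causes were not tested. The minimums of 1 FPKM in both libraries and of 15 FPKM, and counting NDUFA4 in complex IV, were chosen after seeing the data. The planned H1299 results were not run. No paired analysis was possible because each group has 1 library.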
